A study of Mus musculus with 2 samples.

Results

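The genes described here were the 8 bone matrix and osteocyte genes *Spp1*, *Ibsp*, *Dmp1*, *Mepe*, *Phex*, *Fgf23*, *Sost* and *Pdpn*, chosen by name from the 19430 genes of the count tables, and all 8 were present. They were followed over 2 Visium sections of mouse tibial fracture callus, by genotype and by position in the tissue. The control mouse was Nf1[+/flox] and the *Nf1*Postn mouse was Postn-cre;Nf1[flox/-], so that Cre recombinase driven by the periostin (*Postn*) promoter removes the floxed copy of *Nf1* in cells of the periosteum and callus that express it, while every cell of that mouse carries 1 null allele from the start. Both were 8-week-old females without any drug treatment in the labels, with distal tibia fractures held by an intramedullary pin, and their calluses were collected on day 10, fixed in formalin and decalcified in 14% EDTA. Both calluses lay in 1 paraffin block, and 2 sections of that block were measured. The labels number the sections as biological replicates, but each genotype is 1 mouse, so they are called section 1 and section 2, and no p-value is given for any difference.

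*Spp1*, *Ibsp*, *Dmp1* and *Mepe* encode SIBLING proteins (small integrin-binding ligand, N-linked glycoproteins), secreted proteins that bind hydroxyapatite and, through an RGD motif, cell surface integrins. Osteopontin (*Spp1*) and bone sialoprotein (*Ibsp*) are made by osteoblasts and hypertrophic chondrocytes, osteopontin also by macrophages and osteoclasts, whereas *Dmp1* and *Mepe* rise as osteoblasts become embedded in matrix as osteocytes. Osteocytes also express *Phex*, an endopeptidase whose loss causes phosphate wasting, *Fgf23*, the hormone that lowers renal phosphate uptake, *Sost*, which encodes the WNT antagonist sclerostin of mature osteocytes, and *Pdpn* (podoplanin, E11), a membrane protein of early dendrite-forming osteocytes that lymphatic endothelium and fibroblasts express too.

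In the mm39 coordinates of the tables, the SIBLING genes lie together on chromosome 5, in the order *Dspp*, *Dmp1* (ENSMUSG00000029307, chr5:104350479-104361969), *Ibsp* (ENSMUSG00000029306, chr5:104447037-104459336), *Mepe* (ENSMUSG00000053863, chr5:104473195-104486478) and *Spp1* (ENSMUSG00000029304, chr5:104582984-104588917), and the whole row spans 270340 bases. The other genes are apart from it, with *Sost* (ENSMUSG00000001494) at chr11:101853284-101857842, *Phex* (ENSMUSG00000057457) at chrX:155945071-156198309, *Fgf23* (ENSMUSG00000000182) at chr6:127049865-127058372 and *Pdpn* (ENSMUSG00000028583) at chr4:142994001-143026135. *Dspp*, the tooth member of the row, had 11 UMIs in section 1 and 5 in section 2. The promoters of 5 genes are shown because these neighbours on chromosome 5 differed in where they were expressed, and *Sost* on chromosome 11 resembled *Dmp1* more than *Ibsp* did. The sequences are the 250 bases before the transcription start in RefSeq (GRCm38.p6, 5′ to 3′ along the gene's strand), with capitals marking the motifs searched on both strands, namely the RUNX core TGTGGT, the homeodomain letters TAATTG and TAATTA, the AP-1 letters TGANTCA and the CCAAT box, of which none overlap here. They are *Spp1* at chr5:104434861-104435110 (plus strand, the first of its 2 RefSeq starts), *Ibsp* at chr5:104299037-104299286 (plus), *Dmp1* at chr5:104202367-104202616 (plus, the second of its 2 starts), *Mepe* at chr5:104325079-104325328 (plus) and *Sost* at chr11:101967016-101967265 (minus):
Spp1: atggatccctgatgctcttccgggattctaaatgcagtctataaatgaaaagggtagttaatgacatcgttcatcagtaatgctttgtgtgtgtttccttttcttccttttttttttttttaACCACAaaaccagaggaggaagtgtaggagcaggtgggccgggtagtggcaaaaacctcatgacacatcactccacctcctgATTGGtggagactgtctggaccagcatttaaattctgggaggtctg
Ibsp: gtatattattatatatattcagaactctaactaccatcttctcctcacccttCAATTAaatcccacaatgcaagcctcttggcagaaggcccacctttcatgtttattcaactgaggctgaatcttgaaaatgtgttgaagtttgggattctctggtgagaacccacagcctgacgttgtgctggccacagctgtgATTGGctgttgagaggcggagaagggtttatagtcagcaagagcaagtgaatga
Dmp1: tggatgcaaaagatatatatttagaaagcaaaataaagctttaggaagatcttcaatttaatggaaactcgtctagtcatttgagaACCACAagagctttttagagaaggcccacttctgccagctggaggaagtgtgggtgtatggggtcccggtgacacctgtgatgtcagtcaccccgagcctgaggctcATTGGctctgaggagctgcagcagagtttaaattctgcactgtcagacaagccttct
Mepe: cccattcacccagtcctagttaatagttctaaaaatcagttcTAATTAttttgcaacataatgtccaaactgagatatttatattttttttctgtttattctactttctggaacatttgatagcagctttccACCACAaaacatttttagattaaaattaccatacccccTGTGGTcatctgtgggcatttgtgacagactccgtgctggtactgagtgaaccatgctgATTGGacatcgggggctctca
Sost: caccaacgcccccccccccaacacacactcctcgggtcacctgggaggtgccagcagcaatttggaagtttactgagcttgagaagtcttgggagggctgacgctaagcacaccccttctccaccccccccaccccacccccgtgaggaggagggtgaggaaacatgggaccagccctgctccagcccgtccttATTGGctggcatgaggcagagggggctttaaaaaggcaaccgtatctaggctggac

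A CCAAT box on the opposite strand (ATTGG) stood in each of these 5 windows, beginning 46 bases before the start in *Spp1*, 54 in *Ibsp*, 57 in *Dmp1*, 21 in *Mepe* and 56 in *Sost*, and 33.8% of the 32851 RefSeq windows of this length hold one on either strand. The other start of *Dmp1* also has it, while the other start of *Spp1* and the windows of *Phex*, *Fgf23* and *Pdpn*, which are not printed, have none. The RUNX core stood in the printed windows of *Spp1*, *Dmp1* and *Mepe*, with 2 copies in *Mepe*, and in 14.0% of all windows. It was in no other window of the 8 genes. For *Spp1* and *Dmp1*, with 2 starts each, its presence therefore depends on which start was printed. Homeodomain letters were in *Ibsp* and the *Phex* window (TAATTG, in 7.17% of windows) and in *Mepe* and the other start of *Spp1* (TAATTA, in 4.84%), and AP-1 letters were in none of the 5 against 6.75% of all windows. These are matches of letters and not measured sites.

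Visium captures probe pairs that hybridized to RNA of the fixed tissue on a grid of spots 100 μm apart, each spot holding several cells, and each unique molecular identifier (UMI) counts 1 captured probe product. Section 1 held 1700 control spots with a median of 7053 UMIs and 1341 *Nf1*Postn spots with a median of 2030, and section 2 held 1778 control spots with 5718.5 and 1556 *Nf1*Postn spots with 3239.75. Levels are given as CPM, the standard depth-scaled count, here the UMIs of a gene summed over a group of spots relative to the UMIs of all genes in those spots, with exact 95% intervals that cover counting error only. Probe number and efficiency differ between genes, so a level is compared across tissue and never between genes. *Nf1* itself was at 87.8 and 79.0 CPM in control sections 1 and 2 and at 65.6 and 49.6 CPM in *Nf1*Postn, but where its probes lie against the floxed exons is not given in the sources used here, so this does not check the labels. The grid layout repeats between capture areas, and 2711 spot barcodes occurred in both sections, as the design of the slide implies.

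*Spp1* had 24545 and 21814 UMIs in control sections 1 and 2 and 3172 and 3889 in *Nf1*Postn. *Ibsp* had 9662 and 6394 UMIs in the control sections, *Dmp1* 10534 and 8410, and *Sost* 4387 and 3028. *Pdpn* (1094 and 1059), *Phex* (661 and 488) and *Mepe* (244 and 155) rest on fewer UMIs and so have wider intervals. *Fgf23* had 7 UMIs in each control section and 5 and 8 in *Nf1*Postn, no more than 1 in any spot, and its 14 control spots were spread over 7 regions, so no pattern of *Fgf23* could be read at this depth.

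**Figure D1:**
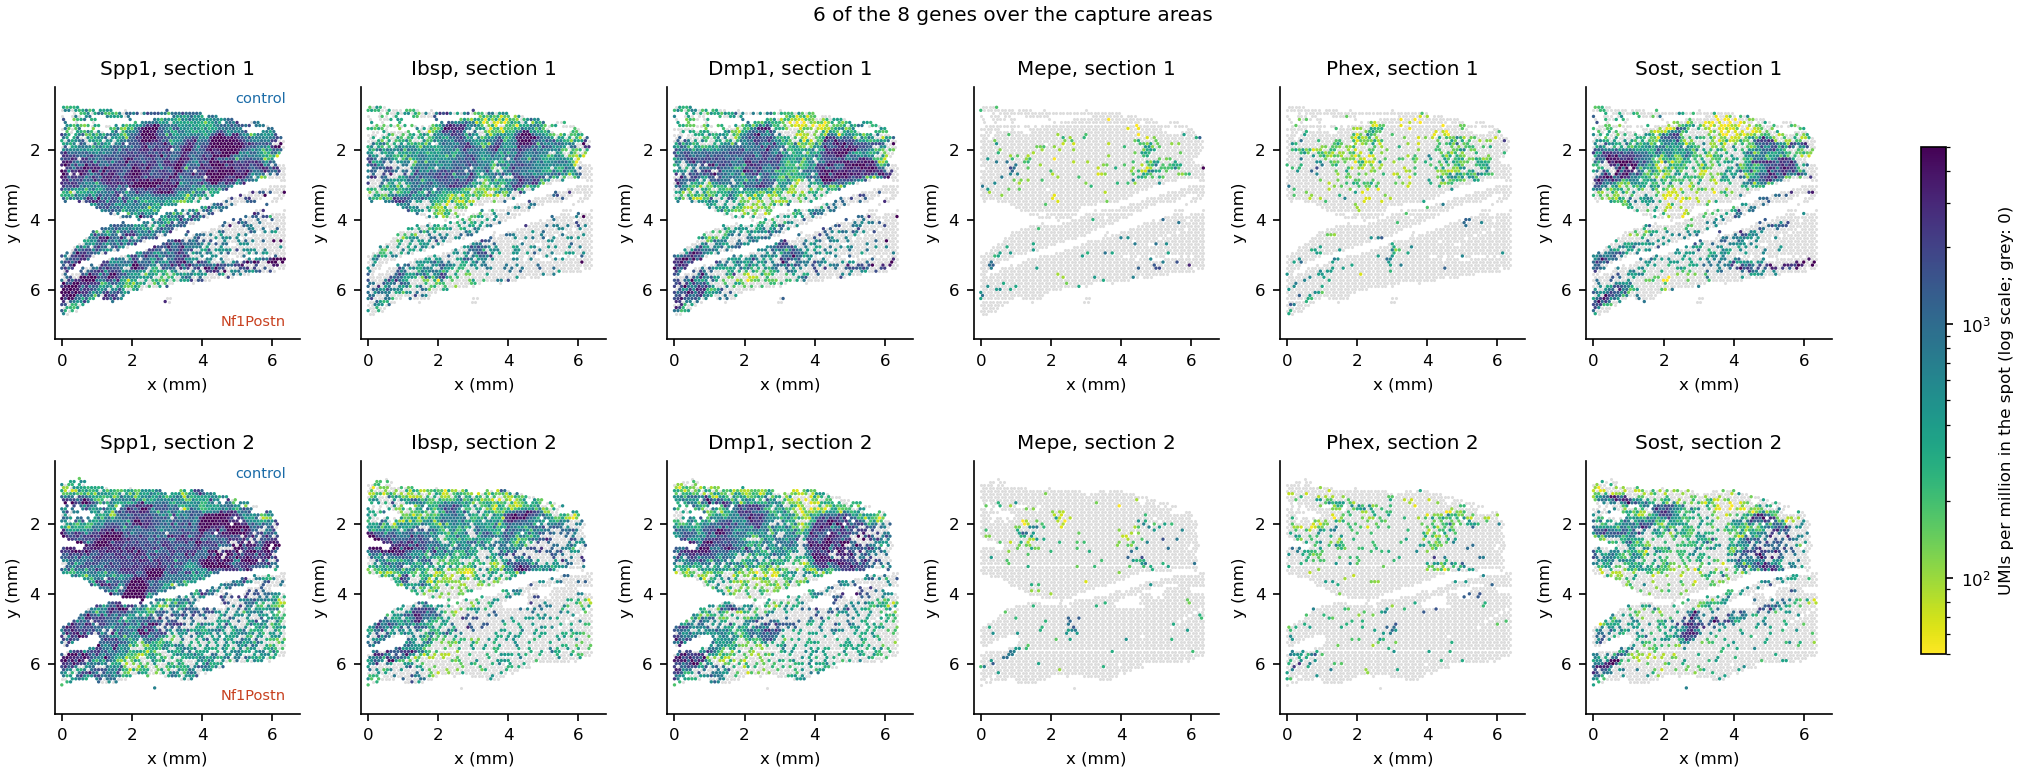
Level of 6 genes in every spot of section 1 (top) and section 2 (bottom), as CPM in the spot on a log color scale, with grey spots at 0 and axes in mm. The control callus is the upper tissue of each panel and *Nf1*Postn the lower; in the control, *Dmp1* and *Sost* were lowest at 3 to 4 mm, where the cartilage genes peaked, and high on both sides of it.

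Across the long axis of the control callus, the genes did not share 1 profile. In bins of 1 mm, the cartilage genes peaked from 3 to 4 mm, at 136285 CPM for the summed list in section 1 and 105574 CPM in section 2. *Dmp1* was lowest there, at 196 and 315 CPM, and stood at 933 and 583 CPM in the bin before it and at 1360 and 1347 CPM in the bin after it. *Sost* had its low point in the same bin, with 67.6 and 71.4 CPM in that middle bin against 376 and 398 CPM in the next and 810 and 383 CPM in the one after that. In section 1, *Sost* at the left end of the tissue, in the first mm, was at 499 CPM, higher than in each of the next 3 bins, whereas *Ibsp* was highest from 4 to 5 mm (1285 CPM) and at 454 CPM at the left end. Section 2 showed the same low point of *Dmp1* and *Sost*, with *Ibsp* at 984 CPM from 4 to 5 mm, so that the middle of the callus was low in the osteocyte genes in both sections. From 3 to 4 mm *Ibsp*, at 447 and 312 CPM, was also below the bins on either side. *Spp1* was too, at 1336 and 1086 CPM, so the low middle was not particular to the osteocyte genes.

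Spots were grouped into 13 regions by Leiden clustering without the 8 genes and without the marker lists, and regions are called by their leading genes. One region led by the osteoclast genes *Acp5*, *Siglec15*, *Ocstamp* and *Mmp9* and by osteocalcin (*Bglap*) had the highest sum of bone formation genes in the control and is called the bone region, with 842 control and 32 *Nf1*Postn spots. A region led by *Ucma*, *Scrg1* and *Cnmd* had the highest sum of cartilage genes and is called the cartilage region, with 213 control spots and 1 *Nf1*Postn spot. A second cartilage-rich region was led by the hypertrophy genes *Col10a1* and *Ihh* (389 control and 28 *Nf1*Postn spots). The region led by *Myh7* and other muscle genes (119 and 694 spots) served as the tissue that should lack bone genes.

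*Dmp1*, which is needed for osteocyte maturation and mineralization, had its highest control level in the bone region, at 1733 CPM in section 1 and 1686 CPM in section 2. In the cartilage region it was at 148 and 120 CPM, a 12.3-fold difference over both sections (95% interval 11.1 to 13.6). The bone region held 68.0% of all control *Dmp1* UMIs, against 29.3% of the control UMIs of all genes. The Col10a1 region, at 865 and 877 CPM of *Dmp1*, was intermediate. *Dmp1* levels in the 2 sections lay close together in all 3 regions.

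*Phex* was highest in the bone region too, at 105 and 99.2 CPM against 15.1 and 6.59 CPM in the cartilage region. The bone region held 67.0% of control *Phex* UMIs, against 29.3% of the control UMIs of all genes. Among regions with at least 20 *Phex* UMIs, the level in the *Hbb-bs*, *Ltf* region came next, at 45.8 and 63.4 CPM. It did not differ beyond its counting interval from that in the Col10a1 region, at 37.4 and 57.2 CPM. The region led by *Angptl7*, with only 7 and 8 *Phex* UMIs, was at 73.5 and 54.1 CPM. *Phex* had 770 UMIs in the control bone region and 38 in the cartilage region.

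*Sost* had another order. The region led by *Angptl7*, *Cilp2*, *Myoc* and *Mepe* itself (which the clustering left out), a set of low-depth spots with a median of 1046 UMIs in the control, had 2184 CPM of *Sost* in section 1 and 703 CPM in section 2. The *Hbb-bs*, *Ltf* region followed at 889 and 754 CPM, and the bone region at 737 and 573 CPM. In control spots of the Hbb-bs region the bone formation list was at 125043 CPM, against 174281 CPM in the bone region. The erythroid list was at 780 against 146 CPM there, and the granulocyte list at 182 against 195 CPM. Only in section 1 did the Angptl7 region stand above the other 2, so the order of these 3 regions for *Sost* rests on that section. All 3 were well above the cartilage region at 65.0 and 30.8 CPM. By count of UMIs the bone region still held 67.6% of control *Sost*, against 29.3% of the control UMIs of all genes.

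*Mepe*, which encodes a phosphoglycoprotein of osteocytes, followed *Sost* in this. It was at 136 CPM in section 1 and 60.8 CPM in section 2 in the Angptl7 region, from 13 and 9 UMIs, at 39.7 and 29.5 CPM in the bone region, and at 5.18 and 1.10 CPM in the cartilage region. *Mepe* was the only gene of the 7 at least 2-fold higher in the Angptl7 than in the bone region in both sections, where 2.23% of all genes met that rule, and the section 2 interval of that ratio included no difference.

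*Ibsp*, unlike *Dmp1* and *Mepe* beside it on chromosome 5, was also high in cartilage. It was highest in the Col10a1 region, at 1103 CPM in section 1 and 949 CPM in section 2, with the bone region at 951 and 1018 CPM, and the 2 sections disagreed on which of these regions was higher. In the cartilage region it stood at 548 and 506 CPM, so the bone region exceeded cartilage by 1.83-fold (1.73 to 1.93), against 2.47-fold for *Spp1*, 12.3-fold for *Dmp1*, 12.2-fold for *Sost*, 8.94-fold for *Mepe* and 8.17-fold for *Phex*. These folds depended on which spots were called cartilage. At resolution 0.3 the region richest in cartilage genes was led by *Meltf*, *Clec3a*, *Snorc* and *Col10a1*, and with all genes kept in the clustering it was the Col10a1 region, and the log2 ratio of bone to it was -0.0047 and -0.086 for *Ibsp*, 1.46 and 0.94 for *Dmp1* and 2.43 and 2.08 for *Sost*.

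*Spp1* was high over the widest area. The bone region had 2897 and 2611 CPM, the Col10a1 region 2589 and 2100 CPM, the Angptl7 region 2142 and 2366 CPM, and the muscle region still 366 and 593 CPM. In the region led by *Gpnmb*, *Fbn2* and *Lrrc15*, *Spp1* was at 1418 and 2261 CPM while *Dmp1* was at 256 and 123 CPM. When spots were divided more finely, at resolution 1.0, a region led by *Gpnmb*, *Mmp3*, *Il1rn*, *Crabp1* and *Ccl7* (208 control spots) had 2308 CPM of *Spp1* with 122 CPM of *Ibsp*, 97.6 CPM of *Dmp1* and 29.5 CPM of *Sost* over both sections. Its *Spp1* came mostly from section 2, with 4268 UMIs in 113 spots there against 1215 UMIs in 95 spots of section 1. In this Gpnmb, Ccl7 region the other values also differed by section. *Spp1* UMIs per *Ibsp* UMI were 6.17 in section 1 (5.30 to 7.21) and 45.4 in section 2 (37.0 to 56.3), so the sections differed by far more than counting error. The same ratio was 3.16 and 2.33 in the region of that division with most bone formation signal (led by *Mepe*, *Bglap* and *Sost*) and 1.12 and 1.48 in its *Ucma* region. In its *Clec3a*, *Meltf* region, which had the highest sum of cartilage genes in that division, the ratio was 2.49 and 2.78. The summed macrophage markers, a list that includes *Gpnmb*, were at 755 CPM in the Gpnmb, Ccl7 region and 508 CPM in that Mepe, Bglap region. By section they were at 586 against 539 CPM in section 1 and 925 against 483 CPM in section 2. The osteoclast markers were at 3410 CPM in the Gpnmb, Ccl7 region and 13821 CPM in the Mepe, Bglap region. The part that macrophages have in this *Spp1* signal was not tested.

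*Pdpn* was not highest in the bone region. Its level was highest in the Gpnmb region, at 113 and 120 CPM, and in the region led by *Prg4*, *Adipoq* and *Cfd*, at 110 and 111 CPM, which did not differ from it beyond counting error. In the bone region it was at 83.2 and 80.2 CPM, and the cartilage region (39.1 and 35.2 CPM) and muscle region (25.2 and 12.4 CPM) were lowest. Over 39 units of region, genotype and section with at least 20 spots, its log2(CPM + 1) correlated most, among the lymphatic, fibroblast and bone formation lists, with *Dpt* of the fibroblast list (r = 0.680) and *Flt4* of lymphatic endothelium (r = 0.677), but the bone formation list was spread as widely, from *Sp7* (r = 0.130) and *Bglap* (r = 0.221) to *Ifitm5* (r = 0.614) and *Alpl* (r = 0.617). These units share sections and depth, and *Afap1*, *Pheta2*, *Denn2b* and *Camkk2*, among the genes most like *Pdpn* in them (r from 0.953 to 0.962), are on none of the lists.

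**Figure D2:**
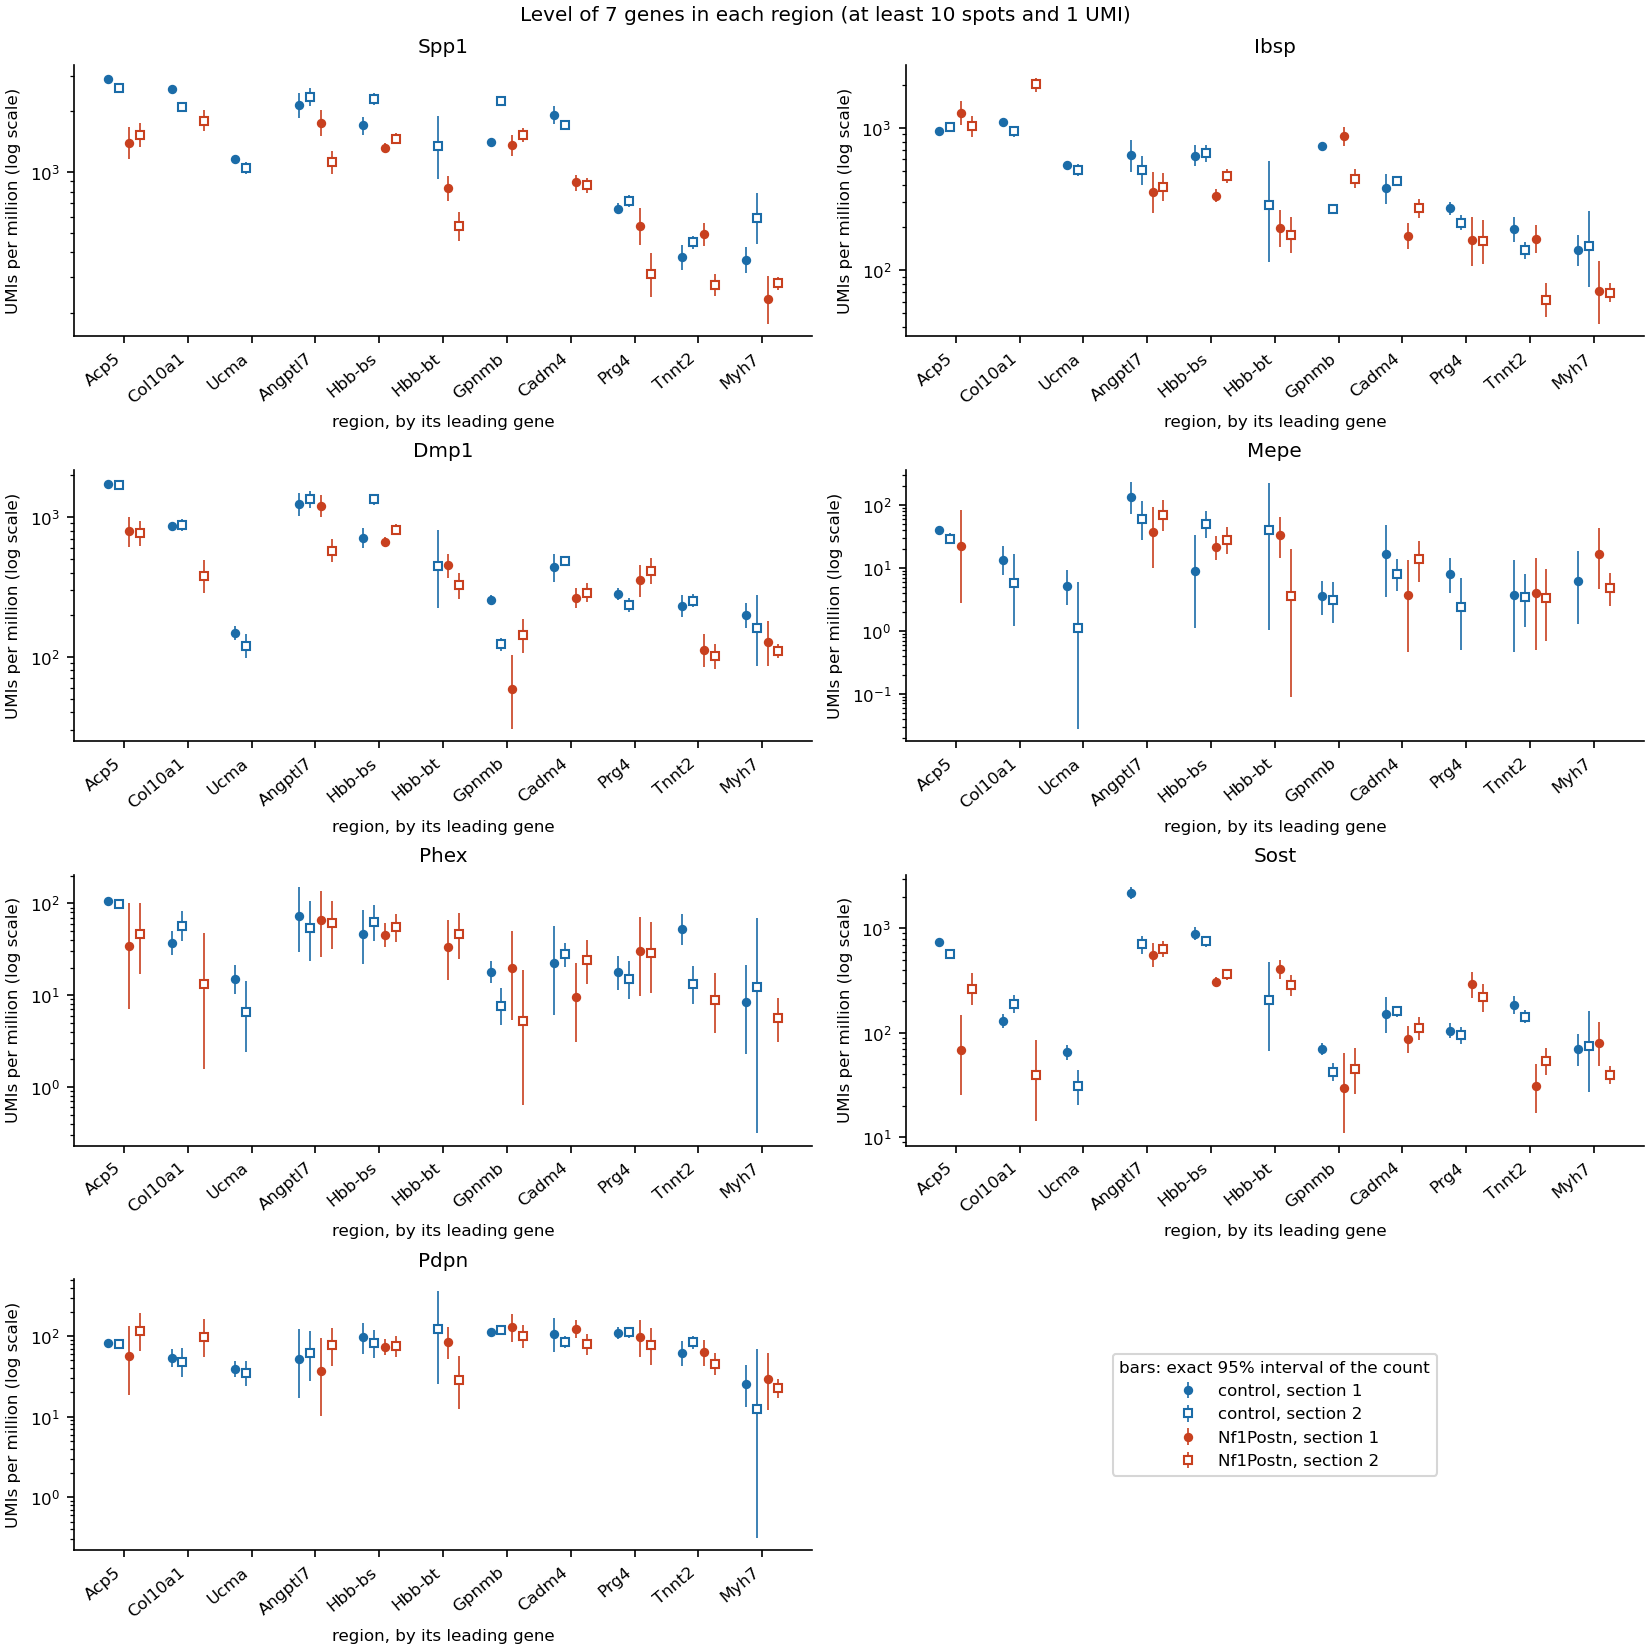
Level of 7 genes by region, in CPM on a log axis, for control (blue) and *Nf1*Postn (red) in section 1 (filled) and section 2 (open), with exact 95% intervals. Groups with under 10 spots or without a UMI, and the regions led by *2310002L09Rik* and *Rxrg*, are not drawn. *Dmp1* and *Sost* in control were over 8-fold apart between the Acp5 (bone) and Ucma (cartilage) regions, while *Ibsp* differed by under 2.1-fold.

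Of the 7 genes with at least 50 UMIs per section in this contrast, 6 were at least 2-fold higher in the control bone region than in the cartilage region in both sections, all but *Ibsp*, where 9.92% of the 8645 genes tested met the same rule. Between the bone and the Col10a1 region, 2 of 7 did so, *Mepe* and *Sost*, against 1.92% of genes. The minimum adds up both regions, and *Mepe* passed it through bone, with 11 and 1 UMIs in the cartilage and 16 and 3 in the Col10a1 region, as did *Phex*, with 32 and 6 in cartilage. In section 2, *Sost* with 28 and *Pdpn* with 32 cartilage UMIs also passed it only through the region compared with cartilage. *Sost* was 4.50-fold higher in bone than in the Col10a1 region (3.97 to 5.13), whereas *Spp1* was 1.14-fold higher. By section, *Sost* was 5.67-fold and 3.04-fold higher. Against the muscle region 6 of 7 met the rule, all but *Mepe*, where 14.5% of genes did, though none of them had 50 UMIs in the muscle region of section 2, and between the Col10a1 and the cartilage region 3 of 5, *Spp1*, *Dmp1* and *Sost*, against 3.38%.

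Distance from the cartilage region gave these differences without the borders of the other regions. In control spots, *Dmp1* went from 148 CPM inside the cartilage region to 446 CPM within 300 μm, 940 CPM from 300 to 600 μm and 1327 CPM from 600 to 1000 μm in section 1, and from 120 to 563, 1070 and 964 CPM in section 2. *Sost* went from 65.0 to 90.5, 263 and 407 CPM in section 1 and from 30.8 to 117, 277 and 376 CPM in section 2, so it was highest at 600 to 1000 μm of these 4 bins in both sections, where *Dmp1* of section 2 was already lower. Beyond 1000 μm, where muscle and marrow spots enter, *Sost* was at 624 CPM in section 1 and 259 CPM in section 2. *Ibsp* lay between 441 and 1015 CPM in section 1 and between 480 and 589 CPM in section 2. *Mepe* was at 5.18 and 1.10 CPM inside the cartilage region and at 28.6 and 23.7 CPM from 600 to 1000 μm.

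**Figure D3:**
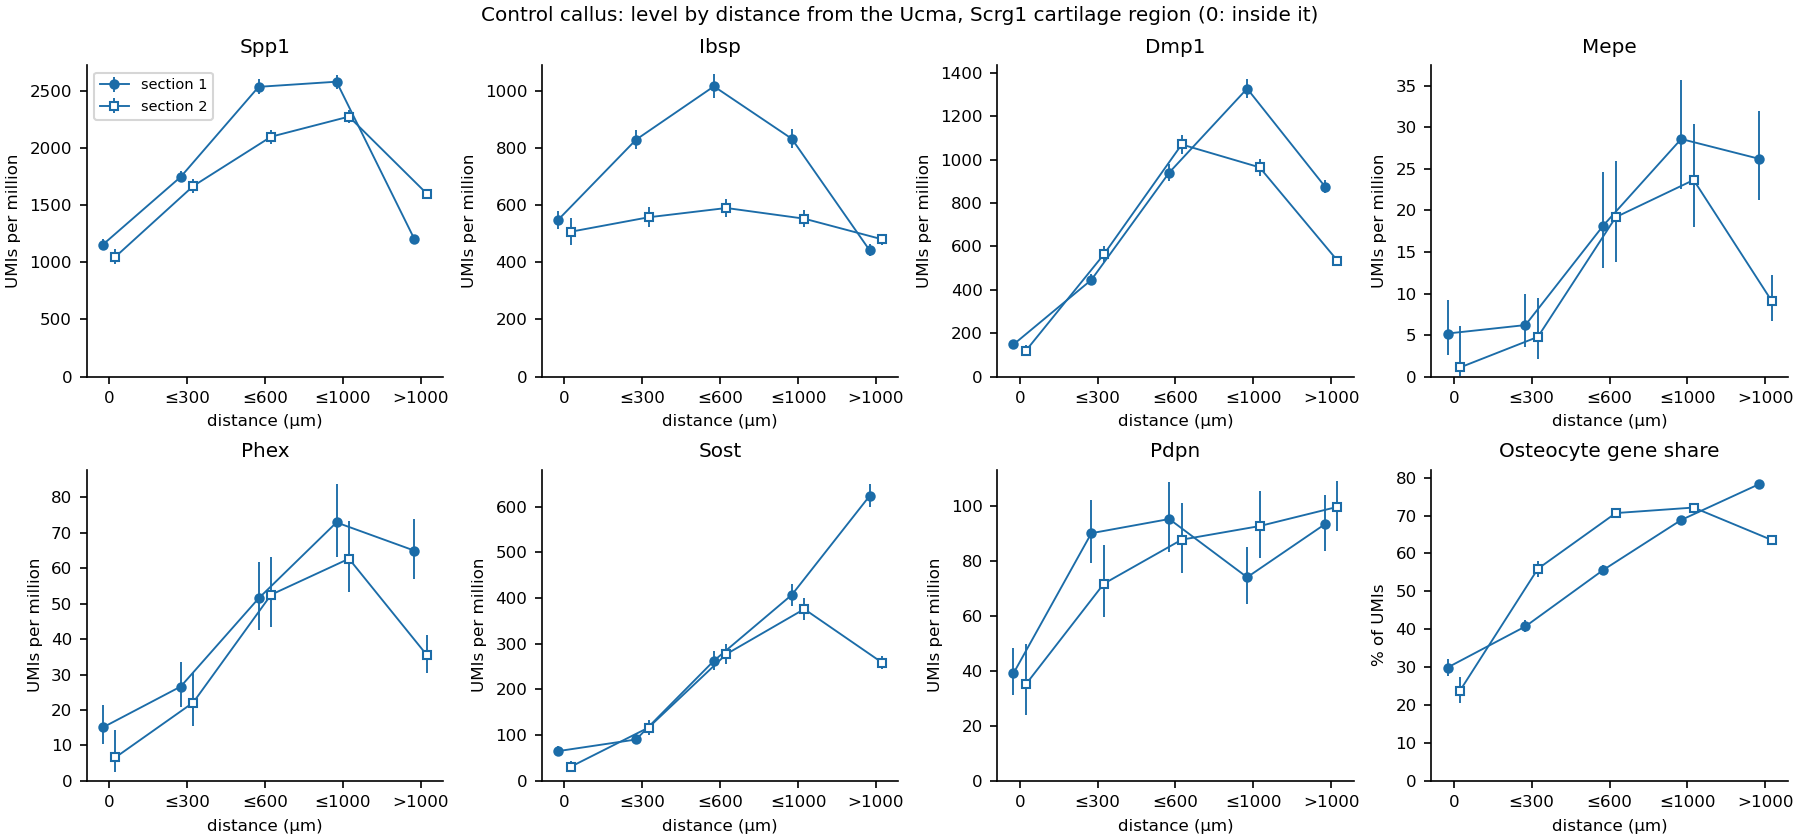
Level of 7 genes (CPM) and the osteocyte gene share (%) in control spots by distance in μm from the Ucma, Scrg1 cartilage region, with 0 for spots inside it, for section 1 (filled) and section 2 (open) with exact 95% intervals. *Dmp1*, *Phex*, *Mepe* and *Sost* were higher in each bin up to 1000 μm than in the one before, except *Dmp1* in section 2, which was highest at 300 to 600 μm; *Ibsp* in section 2 stayed between 480 and 589.

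The balance within the group was summed up as the osteocyte gene share, the UMIs of *Dmp1*, *Mepe*, *Sost*, *Phex* and *Fgf23* as a percentage of these plus *Ibsp* in the same spots. This share does not depend on depth, and its size has meaning only between groups of spots. In the control it was 29.9% and 23.8% in the cartilage region of sections 1 and 2, 48.7% and 54.4% in the Col10a1 region, 73.3% and 70.1% in the bone region and 85.0% and 81.1% in the Angptl7 region. The order of these 4 regions was the same in both sections, and no counting intervals of neighbours overlapped. In the muscle region, which should lack bone genes, the share was 67.0% and 62.5%, from 200 and 32 such UMIs. A high share therefore does not by itself mark bone.

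The genes also met in the same spots. In the control bone region *Sost* was detected in 433 of 454 spots in section 1 and 326 of 388 in section 2, and *Mepe* in 107 and 73 of them. The bone region spots with a *Mepe* UMI had 2526 CPM of *Dmp1* in section 1 against 1524 CPM without, and 2360 against 1524 CPM in section 2. *Spp1* was higher with *Mepe* as well (4091 against 2582 CPM, and 3235 against 2461 CPM). *Ibsp* was not, at 888 against 968 CPM in section 1 and 1116 against 995 CPM in section 2. *Sost* was 1057 against 653 CPM in section 1 but 622 against 562 CPM in section 2, the latter within counting error, and section 1 made most of its difference. The median depth of spots with and without *Mepe* was 7988 and 8659 UMIs over both sections.

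Detection in spots of muscle gave the background. Thinned to 1000 UMIs per spot, *Dmp1* was detected in 74.2% and 72.2% of control bone region spots of sections 1 and 2, against 19.5% and 12.8% in the muscle region of both genotypes, and *Sost* in 48.2% and 39.7% against 9.20% and 3.60%. *Phex* was detected in 9.47% and 9.79% of bone region spots against 0.575% and 0.469%, and *Mepe* in 5.51% and 3.09% against 0 of 174 spots in section 1, which allows a share of up to 2.10% (exact 95% limit), and 0.469% in section 2. As deposited, without thinning, *Sost* was detected in 95.4% and 84.0% of bone region spots and in 25.3% and 13.8% of muscle region spots. By this measure 7 of the 8 genes, all but *Fgf23*, stood above muscle of both genotypes in both sections, without overlap of intervals. Against control muscle alone, *Mepe* overlapped in section 2, with 0 of 19 spots (limit 17.6%) against 18.8% in bone, and the others of the 7 did not. The share of all genes is not given here, and depth without thinning was unequal. Median depths were 9096 and 7694 UMIs in the bone region and 3804 and 3576 in the muscle region.

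The next question was how the callus of the *Nf1*Postn mouse, the model of impaired fracture healing, compared. Over all spots, *Spp1* was at 1810 and 1799 CPM in control sections 1 and 2 and at 916 and 650 CPM in *Nf1*Postn, 1.98-fold and 2.77-fold lower. *Dmp1* was at 777 and 694 CPM in control and 396 and 260 CPM in *Nf1*Postn, which is 1.96-fold and 2.67-fold lower. For *Ibsp*, 712 and 527 CPM in control stood against 288 and 247 CPM (2.48-fold and 2.13-fold lower), and for *Phex* 48.7 and 40.3 CPM against 24.0 and 18.7 CPM (2.03-fold and 2.15-fold). In these 4 genes, and in *Sost* and *Pdpn*, both *Nf1*Postn sections lay below both control sections. The share of all genes with this order is not given here, and the 2 sections of a genotype are 1 mouse.

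*Sost* was 1.66-fold and 1.99-fold lower, at 195 and 125 CPM against 323 and 250 CPM. *Mepe* was at 15.3 and 9.36 CPM against 18.0 and 12.8 CPM, 1.18-fold lower in section 1 (0.870 to 1.61) and 1.37-fold lower in section 2 (1.00 to 1.89), and *Pdpn* was 1.09-fold lower in section 1 (0.948 to 1.25) and 1.74-fold lower in section 2. By the rule of at least 2-fold lower in both sections, 2 of the 7 genes with enough UMIs were called, *Ibsp* and *Phex*, where 1.58% of 11851 genes were called, or 1.11% of 19208 with no filter on low genes. *Spp1* and *Dmp1* missed it by section 1 alone, and 4 genes met it in section 2, for which the share of all genes is not given here. The median log2 ratio was -1.06 over the 7 genes and -0.07 over all genes tested. A mean of log2(CPM + 1) over single spots gave larger differences for *Spp1* (-3.13), *Ibsp* (-3.82), *Dmp1* (-3.13), *Sost* (-2.16) and *Pdpn* (-1.62), and smaller ones for *Mepe* (-0.35) and *Phex* (-1.07). Spots without a UMI enter this mean as 0, so it mixes level with detection at unequal depth. *Ibsp* was detected in 35.5% of *Nf1*Postn and 78.1% of control spots, with median depths of 2642 and 6370 UMIs.

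Regions filled the calluses unevenly, so a lower sum over all spots mixes area and level, and fewer bone cells and less RNA per cell cannot be told apart in it. The bone region held 24.2% of control spots and 1.10% of *Nf1*Postn spots, and the Myh7 muscle region 3.42% and 24.0%. In section 1 the Myh7 region held 100 of 1700 control and 74 of 1341 *Nf1*Postn spots. In section 2 it held 19 of 1778 and 620 of 1556, so its larger share in *Nf1*Postn came from section 2. All 6 muscle genes and all 3 erythroid genes of the lists were at least 2-fold higher in *Nf1*Postn in both sections, against 4.21% of all genes. The control level of each region was then weighted by the share of *Nf1*Postn UMIs in it, with both sections pooled, over 11 regions. These held 88.2% of control and 96.8% of *Nf1*Postn UMIs, and the cartilage region, with 1 *Nf1*Postn spot, was not among them. By this weighting *Ibsp* came to 358 CPM from 637 CPM, with 263 CPM measured in *Nf1*Postn. *Sost* came to 299 CPM from 320 CPM, and the *Nf1*Postn callus had 154 CPM, 1.94-fold less. For *Dmp1* the steps were 818, 507 and 316 CPM, for *Spp1* 1896, 1182 and 763 CPM, and for *Phex* 49.1, 27.7 and 21.1 CPM. Within these 11 regions the weighting changed *Sost* by 1.07-fold and *Ibsp* by 1.78-fold. Over all control spots, cartilage included, *Sost* was at 289 CPM and *Ibsp* at 625 CPM. The effect of makeup over the whole callus was not tested.

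**Figure D4:**
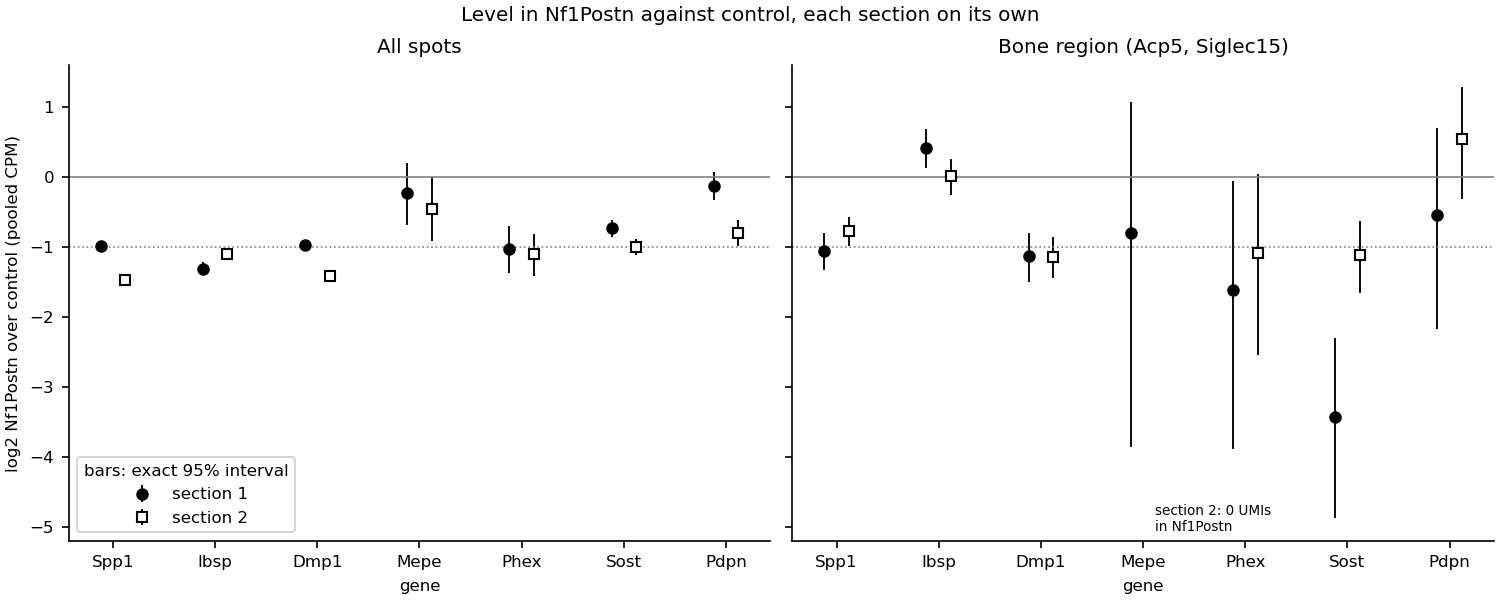
Log2 ratio of *Nf1*Postn to control in pooled CPM for 7 genes, over all spots (left) and inside the bone region (right), for section 1 (filled) and section 2 (open), with exact 95% intervals, a solid line at no difference and a dotted line at 2-fold lower. Over all spots *Ibsp* was at -1.31 and -1.09; inside the bone region it was at 0.42 and 0.01, and *Sost* at -3.42 and -1.12.

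Inside the bone region the genes parted, but its 32 *Nf1*Postn spots also differed in makeup from the 842 control spots. The muscle list was at 17191 CPM against 9558 CPM in control, the erythroid list at 764 against 146 CPM. The osteoclast list was at 4757 against 16077 CPM, while the bone formation list was at 183408 against 174281 CPM. The makeup of these spots and the level in their cells cannot be told apart. *Dmp1* was at 790 CPM in section 1 and 762 CPM in section 2 in *Nf1*Postn, against 1733 and 1686 CPM in control, a log2 ratio of -1.13 (-1.50 to -0.79) and -1.14 (-1.45 to -0.86). *Sost* was at 68.7 and 265 CPM against 737 and 573 CPM, from 6 and 34 *Nf1*Postn UMIs, and the ratio of section 1 (-3.42) was far below that of section 2 (-1.12). *Phex*, from 3 and 6 UMIs, was at 34.4 and 46.7 CPM against 105 and 99.2 CPM, and its interval in section 2 (log2 -2.54 to 0.05) included no difference. *Ibsp*, in the same spots, was at 1271 and 1027 CPM against 951 and 1018 CPM in control, and so was not lower in either section by this measure.

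*Spp1* lay between, at 1397 and 1533 CPM against 2897 and 2611 CPM. *Mepe* had 2 UMIs in section 1 and 0 in section 2, where 3 counts would be 23.3 CPM against 29.5 CPM in control, so it was not measurable there. In this region 3 of 7 genes, *Dmp1*, *Phex* and *Sost*, were at least 2-fold lower in both sections, against 1.58% of 8081 genes, none of the 7 was at least 2-fold higher (0.693% of genes), and these rest on 12 and 20 *Nf1*Postn spots with a median of 6272 UMIs. *Phex*, with 3 and 6 *Nf1*Postn UMIs, and *Sost*, with 6 and 34, passed the minimum of 50 UMIs through the control, so only *Dmp1* of the 3 was well counted in both genotypes. None of the 10 bone formation genes met the rule there, with a list median of 0.01 on the log2 scale, and 5 of 8 osteoclast genes did (*Acp5*, *Ctsk*, *Mmp9*, *Dcstamp* and *Siglec15*). The *Ibsp* ratio turned to -0.19 at resolution 1.0 and to -0.38 as a mean of log2(CPM + 1).

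In the Col10a1 region the contrast could be read in section 2 only, with 27 *Nf1*Postn spots there and 1 in section 1. *Ibsp* was at 2013 CPM against 949 CPM in control, *Dmp1* at 379 CPM against 877 CPM and *Sost* at 39.2 CPM against 189 CPM, while *Spp1*, at 1797 against 2100 CPM, differed less. The Gpnmb region held 19 and 39 *Nf1*Postn spots, and *Ibsp* was at 875 and 440 CPM there against 742 and 267 CPM in control.

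The osteocyte gene share carried this split. In the bone region it was 41.9% (34.8 to 49.2) and 51.1% (45.0 to 57.2) in *Nf1*Postn sections 1 and 2, below 73.3% and 70.1% in control. In the Gpnmb region it was 11.1% and 30.4% against 32.0% and 39.7%, and in the Col10a1 region of section 2 it was 17.6% against 54.4%. In the Hbb-bs and the Angptl7 regions, it was 75.7% and 73.4% against 72.2% and 76.8%, and 84.0% and 77.6% against 85.0% and 81.1%. Over all spots of a genotype the share was 62.1% and 65.4% in control and 68.7% and 62.6% in *Nf1*Postn, so the difference in the bone region was not seen in the sum.

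**Figure D5:**
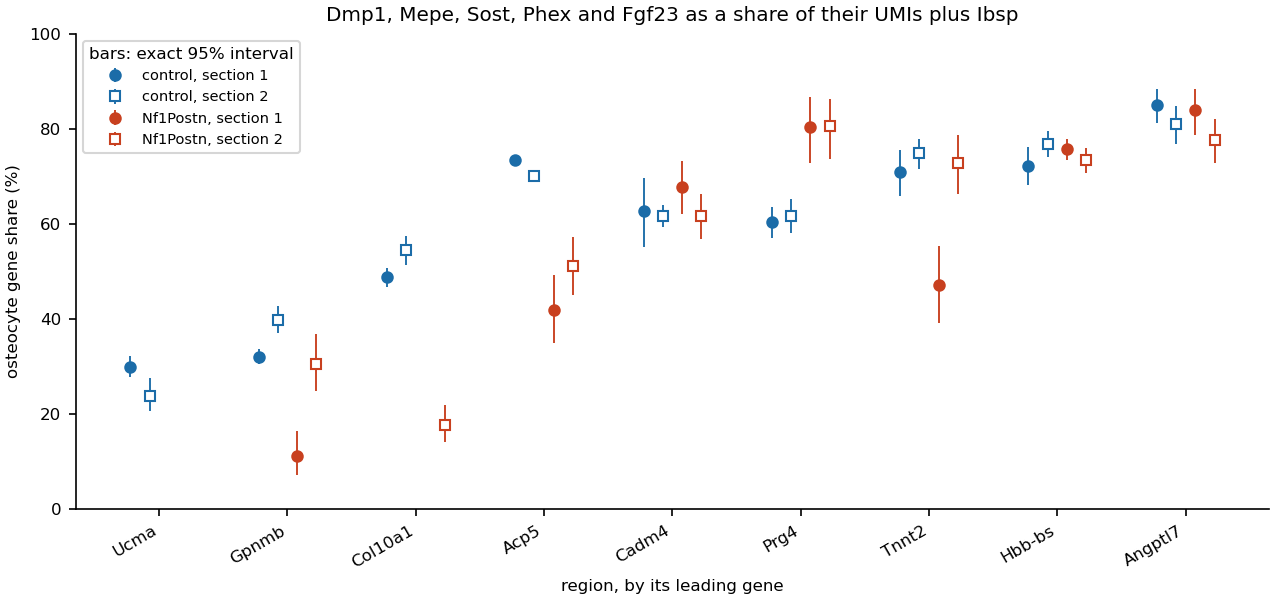
Osteocyte gene share (%), the UMIs of *Dmp1*, *Mepe*, *Sost*, *Phex* and *Fgf23* among these plus *Ibsp*, by region with exact 95% intervals. Control is blue and *Nf1*Postn red, with section 1 filled and section 2 open. Groups with under 50 such UMIs are not drawn. Only a chosen set of regions is shown, and the Myh7 muscle region is not among them. The *Nf1*Postn values lay below both control values in the Gpnmb, Col10a1 and Acp5 (bone) regions, beside them in the Angptl7 and Hbb-bs regions, above them in the Prg4 region, and apart from each other in the Tnnt2 region (47.1% in section 1 and 72.8% in section 2).

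Most of the signal in *Nf1*Postn came from other places than the bone region. The Hbb-bs, Ltf region held 39.4% of its *Sost* UMIs, 42.0% of *Dmp1* and 26.3% of *Ibsp*, against 2.81%, 5.71% and 9.81% in the bone region. Of the *Nf1*Postn UMIs of all genes, the Hbb-bs region held 18.1% and the bone region 2.29%. The Hbb-bs region also held bone genes. Its *Nf1*Postn spots had the bone formation list at 92907 CPM, against 183408 CPM in the bone region. In that Hbb-bs region *Sost* was at 307 and 363 CPM against 889 and 754 CPM in control, *Ibsp* at 334 and 458 CPM against 637 and 664 CPM, and *Spp1* at 1319 and 1463 CPM against 1704 and 2305 CPM. *Dmp1* was at 663 CPM against 710 CPM in section 1, within counting error, and at 811 against 1333 CPM in section 2. Of 6 members tested there *Sost* alone was at least 2-fold lower in both sections (0.253% of 3952 genes), and none was 2-fold higher (0.633%). The median log2 ratio there was -0.46 over these members, -0.62 over the bone formation list and 0.73 over the muscle list. The makeup of these spots and the level in their cells cannot be told apart. Along the long axis, *Dmp1* of *Nf1*Postn was highest in the first mm, at 1089 and 970 CPM, and at 242 and 255 CPM in the next, and *Sost* went from 514 and 371 to 114 and 74.1 CPM. Farther on *Sost* rose again, to 362 CPM from 4 to 5 mm in section 1 and 162 CPM from 2 to 3 mm in section 2. *Dmp1* in section 1 was at 490 CPM from 3 to 4 mm.

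By the same rule in the other regions with at least 10 spots per genotype and section, *Dmp1* and *Sost* were lower in the Tnnt2, Igfn1 region. These were 2 of 5 members tested against 1.02% of genes, and none was higher (0.190%). The bone formation list there had a median log2 ratio of -0.79, with 1 of 10 genes lower by the rule (*Bglap*), and the muscle list 0.67. *Sost* was higher in the Prg4, Adipoq region, 1 of 5 against 0.123% of genes, at 291 and 218 CPM in *Nf1*Postn and 105 and 95.1 CPM in control, and none was lower (0.738%). No member was called in either direction in the Myh7 muscle region (4 tested, where 0.232% of genes were lower and 0.325% higher), the Cadm4 region (5 tested, 0.543% and 0.671%), the Gpnmb region (5 tested, 0.776% and 0.175%) or the Angptl7 region (4 tested, 0.380% and 0.760%).

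Genes that work with these proteins were counted by lists over all spots. Of 10 bone formation genes 3 were at least 2-fold lower in *Nf1*Postn in both sections, the osteoblast transcription factor *Sp7*, the phosphatase *Alpl* and *Ifitm5*, against 1.58% of all genes tested, and the list median was -1.04 against -0.07 over all genes. *Runx2*, the osteoblast master regulator, was at -0.46 and -1.07. Among 9 tested genes of mineral and phosphate handling 1 met the rule (*Alpl*), with *Fam20c*, the kinase that phosphorylates SIBLING proteins, at -1.05 and -0.63 and the pyrophosphate generator *Enpp1* at -0.02 and -0.50. *Lrp4*, the sclerostin partner on bone cells, was at -0.95 and -1.33 on the log2 scale, and *Lrp5* and *Lrp6*, the WNT co-receptors that sclerostin blocks, at 0.02 and -0.40 and at -0.24 and -0.56. Of 11 receptors and partners tested only *Mmp9* met the rule, and the integrin subunits *Itgav* and *Itgb3*, the osteopontin receptor, were at -0.57 and -0.98 and at -0.44 and -0.89. None of 5 other osteocyte genes tested met it. *Gja1*, the gap junction protein of osteocyte processes, was at -0.70 and -1.28, and the median of that list was -0.91.

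Genes most like each member over the 39 units of region, genotype and section were named by Pearson correlation of log2(CPM + 1) among 8629 genes with at least 500 UMIs, as a description. *Spp1* was most like *Runx2* (r = 0.863), followed by *Hnrnpab*, *Lasp1*, *Tnc* and the collagenase *Mmp13* (r = 0.819). *Ibsp* was most like *Sgms2* (r = 0.909) and *Cgref1* (r = 0.907), followed by *Snd1*, *Creb3l1*, a transcription factor of collagen secretion in bone, and *Sp7* (r = 0.840). Among the genes most like *Dmp1* were *Lifr* (r = 0.875), *Mmp9*, *Sost* (r = 0.863) and *Bglap*, and *Sost* was most like *Dmp1*, *Bglap* (r = 0.833), *Kalrn*, *Sem1* and *Lifr*. *Phex* was most like *Pck2*, *Insc*, *Intu* and *Spns2* (r from 0.738 to 0.781). For *Mepe* the closest were *Atp6v1e1* (r = 0.665) and *Sost* (r = 0.651), then *Fgf1*, *Ell* and *Ppargc1b*. *Spp1* and *Ibsp* were alike at r = 0.803, *Spp1* and *Dmp1* at r = 0.655 and *Spp1* and *Sost* at r = 0.408.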

How the data were processed

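The 2 sections came from 1 block and were measured by Visium for fixed tissue. The authors aligned reads to mm39 with Space Ranger (version 1.3.0 in the submitters' processing notes) and deposited the UMI counts, exported from Partek Flow and not normalized, whose unit here is expected counts since 10 entries that join several Ensembl IDs hold means. The deposited genotype labels and spot positions were used as given. An entry without a gene name (5.24e-05% of UMIs) and 5 spots without a genotype stayed out.

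Spots were clustered with leidenalg 0.10.2 (log2(CPM + 1) of 16799 genes found in at least 0.3% of spots, centered per section, 20 principal components, 15 neighbors, resolution 0.5) without the 8 genes and the listed markers, which were fixed as hand-written lists. The members and lists were chosen with earlier results of these data known. Levels are pooled CPM with exact Poisson or binomial 95% intervals, and ratios have exact conditional intervals. A call needed both sections to differ by at least 2-fold in 1 direction and 50 UMIs per section in the groups compared, and a group at 0 was given 3 counts. A peak region needed 20 spots and 20 UMIs. Thinning to 1000 UMIs left out shallower spots. Named genes are the members, listed genes, the 5 leading genes of regions and the 5 genes most like each member. Some of these are not reported here. TMM factors came from edgeR 4.0.16. Depth limits precision most in *Nf1*Postn, with a median of 2642 UMIs per spot against 6370 in control. Ratios were tested on simulated data. No doublet caller was run, since a spot holds several cells. The CCAAT box was searched after the sequences had been seen. Alternatives were other clusterings, TMM factors, means over spots, a depth minimum, no filter and each section left out.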

Additional observations from a re-analysis of the deposited data

Results flagged for a closer look

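In 4 cases the *Nf1*Postn to control ratio of a gene went up in both sections in 1 region and down in both sections in others, and none of these differences was tested. *Ibsp* was higher in the bone region (log2 ratio 0.20 over both sections, 0.42 and 0.01 in sections 1 and 2) and in the Gpnmb region (0.17, with 0.24 and 0.72), while it was lower in both sections in 6 of the 8 regions compared, down to -0.94 and -1.09 in the Myh7 muscle region. *Dmp1* was higher in the Prg4, Adipoq region (0.57, with 0.31 and 0.82) and lower in 6 of 8 regions, with -1.05 and -1.31 in the Tnnt2, Igfn1 region. *Sost* was higher in the same Prg4 region (1.32, with 1.47 and 1.20), from 48 and 45 *Nf1*Postn UMIs in 32 and 38 spots, and lower in 4 of 5 regions, with -2.59 and -1.42 in the Tnnt2 region. A spot of this Prg4 region at the left edge of section 2 had the highest *Dmp1* count of any *Nf1*Postn spot there, 25 UMIs.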

How the results depend on the processing

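The count of 2 genes at least 2-fold lower in *Nf1*Postn over all spots ranged from 2 to 4 with a section left out, was 4 with TMM factors and 5 by the mean of log2(CPM + 1), and stayed at 2 in spots with at least 1000 UMIs and with no filter on low genes. With a section left out, with TMM factors and by the mean, the share of all genes called is not given here, so the larger counts cannot be weighed. The counts in the bone region, by region, by distance and for detection stayed within 1.5 times of their value under every alternative run. The osteocyte gene share of the bone region was 72.0% in control, from 70.1% to 73.3% with a section left out, and 45.1% without *Dmp1*. It was 47.3% in *Nf1*Postn, from 41.9% to 51.1%, and 17.3% without *Dmp1*. Inside the control bone region the log2 ratio in spots with over spots without a *Mepe* UMI was 0.52 for *Sost*, from 0.15 to 0.69 with a section left out, 0.69 for *Dmp1*, from 0.63 to 0.73, and 0.00 for *Ibsp*, from -0.12 to 0.17. That of *Mepe* by *Sost* was 0.71, from -0.024 to 3.07. The *Ibsp* ratio of *Nf1*Postn to control in the bone region reversed to -0.38 (mean of log2(CPM + 1)) and -0.19 (resolution 1.0), and its control ratio of bone to cartilage to -0.0047 (resolution 0.3) and -0.086 (all genes kept). *Spp1* beyond 1000 μm against the cartilage region reversed to -0.62 (top 10% of spots by cartilage genes) and -0.50 (mean of log2(CPM + 1)). The cause was not tested. No paired analysis was possible because the replicate numbers mark 2 sections of 1 block and no test was made. The weighting by regions was chosen after the data were seen. Every interval covers counting error only, and sections often differed by more. *Fgf23*, and *Mepe* and *Phex* in *Nf1*Postn bone, are limited by depth.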
